A study of Mus musculus with 6 samples.

Results

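The genes described here are factors that the connective tissue of bone marrow supplies to blood stem cells and lymphoid cells, with the receptors of the chemokine CXCL12. The set was taken by name from the table of 39017 genes and holds 10: Kitl, Cxcl12, Cxcr4, Ackr3, Il7, Hgf, Met, Angpt1, Thpo and Ptn. All 10 had an identifier in the table, and 9 had enough counts to be tested. RNA sequencing had been performed on cells that stayed attached to the dish after mouse bone marrow was crushed out of limb bones and cultured, and that the submitters describe as macrophages carrying F4/80 and CD169. There were 3 libraries from old mice (over 78 weeks of age) and 3 from young mice (3 weeks of age). Both ages were wild-type mice of the inbred strain BALB/c with no treatment named, and each library was made from the RNA of 10000 cells. The question is whether the supply of niche factors in such cultures differs with the age of the donor mouse. Whether replicates were separate animals is not stated in the labels, so a p-value reflects variation among these 6 libraries only, which may be technical.

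Blood stem cells live in the marrow among stromal cells and vessels that feed them secreted or membrane-bound factors. CXCL12 holds stem cells and B-cell progenitors in place through the receptor CXCR4, while ACKR3 binds the same chemokine and removes it without the usual G protein signal. KIT ligand, encoded by Kitl, is needed for stem cell maintenance, and its main sources in marrow are perivascular stromal cells, often called CXCL12-abundant reticular cells, and endothelium. Interleukin 7 drives lymphoid progenitors, hepatocyte growth factor (HGF) acts through the receptor MET, and angiopoietin 1, thrombopoietin and pleiotrophin have each been tied to stem cell quiescence or expansion in mice.

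Promoter windows of RefSeq (build GRCm38.p6), running from 250 bases before to 50 bases after the start, were held for 8 of the 10 genes, with none for Il7 and Angpt1. The windows of Cxcl12, of its receptors Ackr3 and Cxcr4, and of Kitl are shown because they belong to the most abundant ligands and to a pair of receptors for one chemokine whose transcripts differed in their relation to age. Capitals mark each match to the GC box GGGCGG on either strand, where neighbouring matches can overlap.
Cxcl12: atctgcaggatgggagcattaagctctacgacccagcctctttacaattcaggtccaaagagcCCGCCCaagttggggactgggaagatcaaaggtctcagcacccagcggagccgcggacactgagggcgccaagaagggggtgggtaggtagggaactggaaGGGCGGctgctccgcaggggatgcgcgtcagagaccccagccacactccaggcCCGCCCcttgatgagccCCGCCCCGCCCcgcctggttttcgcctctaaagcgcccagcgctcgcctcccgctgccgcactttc
Ackr3: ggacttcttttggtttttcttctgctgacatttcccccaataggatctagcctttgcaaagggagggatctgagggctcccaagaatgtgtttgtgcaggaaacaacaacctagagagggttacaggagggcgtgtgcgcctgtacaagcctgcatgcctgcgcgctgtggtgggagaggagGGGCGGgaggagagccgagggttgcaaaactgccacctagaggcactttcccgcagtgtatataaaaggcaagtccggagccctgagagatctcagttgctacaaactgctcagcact
Cxcr4: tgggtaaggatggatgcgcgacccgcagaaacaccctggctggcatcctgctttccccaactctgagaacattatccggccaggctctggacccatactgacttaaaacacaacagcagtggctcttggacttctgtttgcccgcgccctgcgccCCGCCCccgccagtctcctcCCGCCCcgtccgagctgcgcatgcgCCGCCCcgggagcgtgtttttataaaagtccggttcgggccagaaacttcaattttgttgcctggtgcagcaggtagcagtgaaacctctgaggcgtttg
Kitl: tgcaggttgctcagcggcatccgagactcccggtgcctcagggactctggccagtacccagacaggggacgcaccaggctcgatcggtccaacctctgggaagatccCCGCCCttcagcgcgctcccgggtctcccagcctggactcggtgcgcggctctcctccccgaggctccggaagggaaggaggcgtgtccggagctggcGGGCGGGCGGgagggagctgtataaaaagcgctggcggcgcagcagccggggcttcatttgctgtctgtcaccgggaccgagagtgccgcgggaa
The windows lie at chr6:117168285-117168584 on the plus strand for Cxcl12, chr1:90203730-90204029 on the plus strand for Ackr3, chr1:128592250-128592549 on the minus strand for Cxcr4 and chr10:100015571-100015870 on the plus strand for Kitl. The GC box matched 5 times for Cxcl12, 3 times each for Cxcr4, Kitl and Met, and once for Ackr3, with 0 matches for Ptn and for either of the listed Hgf starts. Of the pair of listed Thpo starts, one held 1 match and the other 0. Of all 32851 mouse windows of this length, 35.7% held it. The core of the hypoxia response element, ACGTG, matched in the Met window alone among these 8 genes and in 19.6% of all windows, and the palindrome CCCNNGGG that resembles sites of EBF factors matched in the Ptn window alone and in 13.7% of all windows. A match is a run of letters in the window and was not tested for binding.

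Expression of 5 of the 9 tested genes was higher in the old libraries, and 1 was lower. Ackr3, Met, Cxcl12, Kitl and Hgf rose by 2.00-fold to 9.27-fold, while Ptn fell 3.23-fold. Il7, Angpt1 and Cxcr4 did not pass the threshold. Thpo was near the limit of detection at both ages. The threshold is an adjusted p of 0.05 in edgeR's quasi-likelihood test over all 15567 genes tested, where 5.84% of genes were higher, 4.7% were lower and 10.5% were called in either direction. Old and young CPM values were fully separated for 6 of the genes with old above young (15.9% of all tested genes) and for 1 with old below young (14.3%), where 30.2% of all tested genes were separated in either direction. The median log2 fold change, old minus young, was 1.00 over the 9 genes and -0.01 over all tested genes. The genes of the set were chosen with earlier results of these data known, so these comparisons with all genes are descriptive. Each of the 6 calls held on leaving out any single library, and the counts of 5 and 1 were the same in each of these 6 fits.

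**Figure D1:**
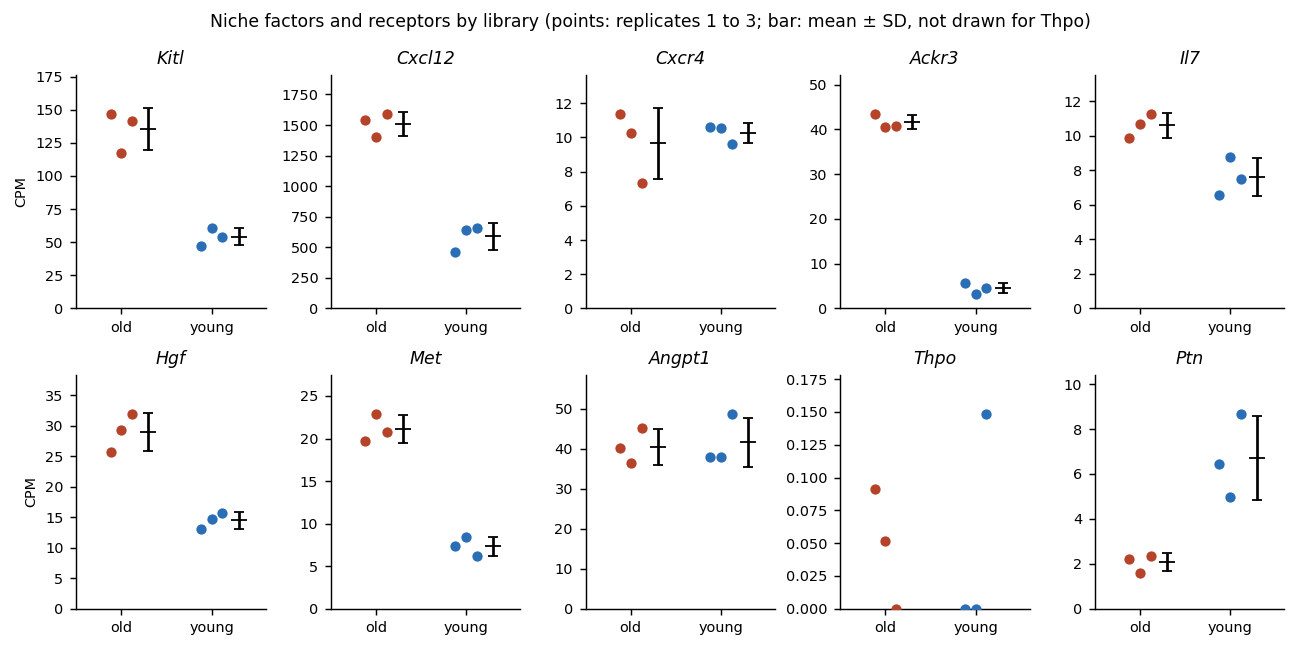
Level of each gene in CPM (counts scaled to library size) in the 3 old libraries (left) and 3 young libraries (right). The mean and SD stand beside the points, except for Thpo, where they are not drawn. Each panel has its own linear axis starting at 0. Kitl, Cxcl12, Ackr3, Il7, Hgf and Met have all old points above all young points, and Ptn has them below.

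Total counts were 36136137 to 43367734 in old libraries and 34391206 to 35813492 in young ones. The cultures were not macrophages alone: type I collagen transcripts (Col1a1 and Col1a2) took 1.80% to 2.25% of counts in old libraries and 2.66% to 5.44% in young ones, with the highest share in young replicate 3, which stood apart from the other libraries in this respect. Without that library the log2 fold changes were 3.22 for Ackr3, 1.42 for Met, 1.45 for Cxcl12, 1.33 for Kitl, 1.06 for Hgf and -1.46 for Ptn. The macrophage genes Adgre1 (F4/80) and Siglec1 (CD169) were present and lower in old libraries, with 226 ± 25.3 and 43.3 ± 5.28 CPM, against 473 ± 77.5 and 131 ± 6.61 CPM in young ones (SD, n = 3 each). The results on each gene are therefore those of a mixed culture. In such bulk samples a change in the number of cells of one type and a change in RNA per cell cannot be told apart.

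Cxcl12, the chemokine that retains stem cells and B-lineage cells in marrow, was the most abundant of the 10. It is gene ENSMUSG00000061353, on the plus strand of chromosome 6 at 117168535 to 117181367 (mm10, the build of all gene positions given here). Old replicates 1, 2 and 3 had 1537, 1404 and 1594 CPM, and the corresponding young replicates had 463.5, 641 and 661 CPM. Each old library was above each young one by a wide margin, and the lowest of the 6 was young replicate 1. The log2 fold change was 1.36 with SE 0.15, a 2.57-fold rise (95% interval 2.02 to 3.26, adjusted p = 0.00224). By mean CPM, which is not corrected for gene length, Cxcl12 ranked 33rd of all genes in old libraries and 179th in young ones. It took 0.142% to 0.159% of all counts in old libraries and 0.0472% to 0.0655% in young ones, most of what the 10 genes had together (0.169% to 0.189% and 0.061% to 0.0807%).

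Kitl encodes KIT ligand, also called stem cell factor, which exists in secreted and membrane-bound forms that gene counts do not separate. It lies on the plus strand of chromosome 10 at 100015630 to 100100416 (ENSMUSG00000019966). Its level was 147, 117 and 141.5 CPM in old replicates 1, 2 and 3, and 47.4, 60.4 and 54.2 CPM in young replicates 1, 2 and 3. The lowest old library, replicate 2, was well above the highest young one, also replicate 2. Its log2 fold change was 1.32 with SE 0.13, a rise of 2.50-fold (95% interval 2.04 to 3.08, adjusted p = 0.00142).

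Both CXCL12 receptors were transcribed, and they differed in their relation to age. Ackr3, the scavenging receptor, lies on the plus strand of chromosome 1 at 90203980 to 90216751 (ENSMUSG00000044337) and had 1908, 1565 and 1469 counts in old libraries, against 196, 118 and 153 in young ones. Scaled to library size, these were 43.5, 40.6 and 40.8 CPM in old replicates 1 to 3 and 5.59, 3.34 and 4.55 CPM in young replicates 1 to 3. The old libraries were close to one another and far above the young ones. The log2 fold change of 3.21 (SE 0.19, adjusted p = 0.000422) was the largest of the 9 in absolute size and ranked 173rd among all tested genes. Leaving out 1 library moved it between 3.04 and 3.40.

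Cxcr4, the signalling receptor of CXCL12, lies on the minus strand of the same chromosome at 128588199 to 128592293 (ENSMUSG00000045382). Old libraries had 11.4, 10.2 and 7.33 CPM, and young libraries had 10.6, 10.6 and 9.60 CPM. The old libraries surrounded the young ones, with old replicate 3 the lowest of all. Its log2 fold change was -0.09 (95% interval -0.51 to 0.34, adjusted p = 0.837), and the sign turned without old replicate 3 (0.07). The interval leaves room for a fall to 0.701 or a rise to 1.26 times the young level. Within each library the ratio of Ackr3 to Cxcr4, per kilobase of exon, was above 1 in the old libraries, with log2 ratios of 1.05, 1.10 and 1.59, and below 1 in the young ones, with -1.81, -2.55 and -1.97.

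The transcripts of the CXCL12 system thus changed by unequal amounts. The log2 ratio of Cxcl12 to Cxcr4 averaged 5.14 ± 0.39 in old libraries and 3.65 ± 0.34 in young ones (SD, n = 3 each), 2.80-fold higher in old. The log2 ratio of Cxcl12 to Ackr3 averaged 3.89 ± 0.09 in old libraries and 5.76 ± 0.62 in young ones, 3.65-fold lower in old. Neither ratio had overlapping ranges, nor did that of Ackr3 to Cxcr4, which was 10.2-fold higher in old. An exact two-sided permutation test gave p = 0.1 for each, and 0.1 adjusted over the 4 ratios computed. That is the smallest p that 3 against 3 libraries allow, so no ratio could pass the threshold. These ratios are taken within a library and do not depend on how libraries were scaled.

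**Figure D2:**
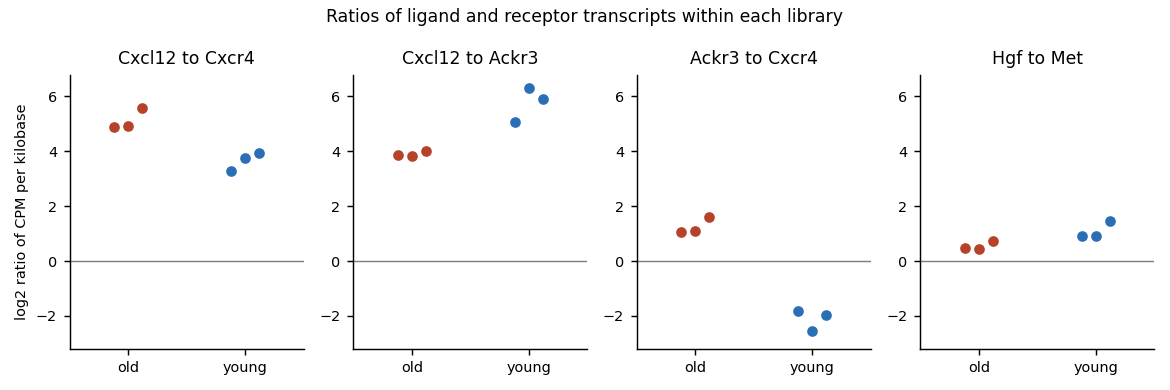
Log2 ratios of CPM per kilobase of exon for 4 pairs of transcripts, with 1 point per library, old libraries left and young libraries right; the line marks equal levels. The ratio of Ackr3 to Cxcr4 lies above the line in the 3 old libraries and below it in the 3 young ones.

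Hgf and its receptor gene Met were both higher in old libraries. Hgf encodes a growth factor made by mesenchymal cells and lies on the plus strand of chromosome 5 at 16553495 to 16620152 (ENSMUSG00000028864). Of its exon length, 6.7% overlaps the gene model Gm43489. Hgf had 25.6, 29.4 and 32.0 CPM in old replicates 1, 2 and 3, against 13.1, 14.6 and 15.8 CPM in young replicates 1, 2 and 3. No old library fell within the young range, and the rise was 2.00-fold (log2 fold change 1.00, SE 0.13, adjusted p = 0.00406). Met, the receptor tyrosine kinase for HGF, lies on the plus strand of chromosome 6 at 17463800 to 17573980 (ENSMUSG00000009376). Its level was 19.7, 22.9 and 20.8 CPM in old libraries and 7.39, 8.37 and 6.18 CPM in young ones. Here too the ages were well separated, with a 2.89-fold rise (log2 fold change 1.53, SE 0.15, adjusted p = 0.00145). Hgf stayed above Met per exon length in each library, and the log2 ratio of Hgf to Met was 0.55 ± 0.15 in old libraries and 1.09 ± 0.31 in young ones (SD, n = 3 each; exact permutation p = 0.1).

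Il7, a cytokine for early B and T cells, was not called. The gene is on the minus strand of chromosome 3 at 7569994 to 7613760 (ENSMUSG00000040329), with 9.86, 10.7 and 11.3 CPM in old libraries and 6.59, 8.77 and 7.49 CPM in young ones. Each old library was above each young one, but the gap was small against the spread. The log2 fold change was 0.48 (95% interval 0.12 to 0.83), with an unadjusted p of 0.0149 and an adjusted p of 0.098 in edgeR. The adjusted p lay between 0.0507 and 0.261 over the alternative tests and the fits without 1 library.

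Angpt1, which encodes the TIE2 ligand angiopoietin 1, showed no detectable difference. It lies on the minus strand of chromosome 15 at 42424723 to 42676977 (ENSMUSG00000022309), and 14.2% of its exon length overlaps the gene model Gm17473, from which unstranded reads cannot be told apart. Levels were 40.1, 36.3 and 45.3 CPM in old libraries and 38.0, 38.0 and 48.7 CPM in young ones. The ranges overlapped, and the highest library was young replicate 3. The log2 fold change was -0.04 with a 95% interval of -0.35 to 0.28 (adjusted p = 0.914), which does not reach the 2.00-fold rise of Hgf. The sign turned without young replicate 3 (0.09) or old replicate 2 (0.04).

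Ptn was the gene that fell. It encodes pleiotrophin, a heparin-binding growth factor, on the minus strand of chromosome 6 at 36714929 to 36810220 (ENSMUSG00000029838). It had 98, 62 and 85 counts in old libraries, against 226, 176 and 292 in young ones, or 2.24, 1.61 and 2.36 CPM against 6.45, 4.98 and 8.68 CPM. Young replicate 3 was the highest and old replicate 2 the lowest, and the ages did not overlap. The log2 fold change was -1.69 (SE 0.27, adjusted p = 0.00938), and it was -1.46 without young replicate 3 and -1.54 without old replicate 2. The call held in each fit without 1 library, with adjusted p up to 0.0439.

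Thpo, which encodes the platelet and stem cell growth factor thrombopoietin, made mainly in liver, had 4, 2 and 0 counts in old libraries and 0, 0 and 5 in young ones. It lies on the minus strand of chromosome 16 at 20724454 to 20734511 (ENSMUSG00000022847), and 9.1% of its exon length overlaps Chrd, whose reads cannot be told apart there. A count of 0 allows up to 0.0833 CPM in the old library and 0.0849 and 0.0856 CPM in the young libraries where it was seen (3 counts per library, counting error only). A two-sided exact permutation test on its CPM gave p = 1, and no difference was detectable at this depth.

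**Figure D3:**
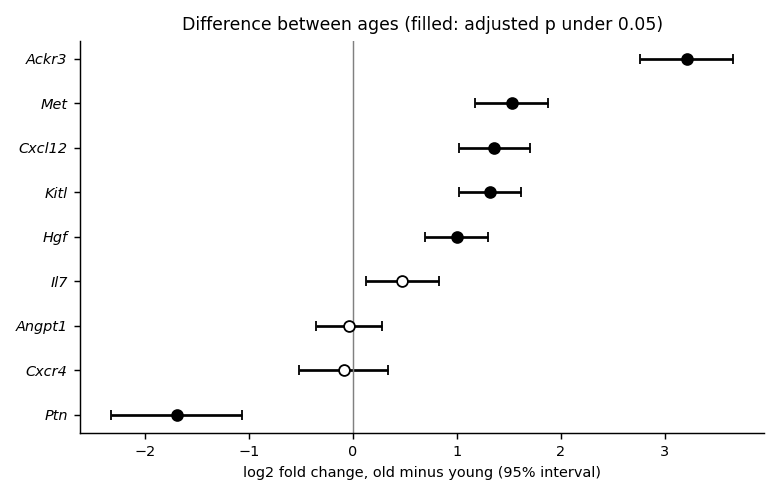
Log2 fold change, old minus young, of the 9 tested genes with its 95% interval; filled points passed an adjusted p of 0.05. The intervals of Ackr3, Met, Cxcl12, Kitl and Hgf lie above 0, that of Ptn lies below 0, and Il7 is above 0 without passing the adjusted threshold.

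Set per kilobase of exon, Cxcl12 led in both ages, with 185 ± 11.9 CPM per kilobase in old libraries and 72.0 ± 13.3 in young ones (SD, n = 3 each). In old libraries the order after Cxcl12 was Kitl (22.9), Ackr3 (12.4), Angpt1 (7.79), Cxcr4 (5.34), Hgf (4.04), Met (2.75), Il7 (1.87), Ptn (0.603) and Thpo (0.0182). Of these neighbours, Cxcr4 and Hgf had overlapping ranges. In young libraries the order was Kitl (9.14), Angpt1 (7.99), Cxcr4 (5.67), Hgf (2.02), Ptn (1.95), Il7 (1.34), Ackr3 (1.34), Met (0.953) and Thpo (0.0188). There Kitl overlapped Angpt1, and each of Hgf, Ptn, Il7, Ackr3 and Met overlapped its neighbour in the order. Counting from Cxcl12 at place 1, Ackr3 stood at place 3 in old libraries and at place 8 in young ones. Exon length here is that of all annotated exons merged, which lowers the value of genes with long or rare alternative exons.

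**Figure D4:**
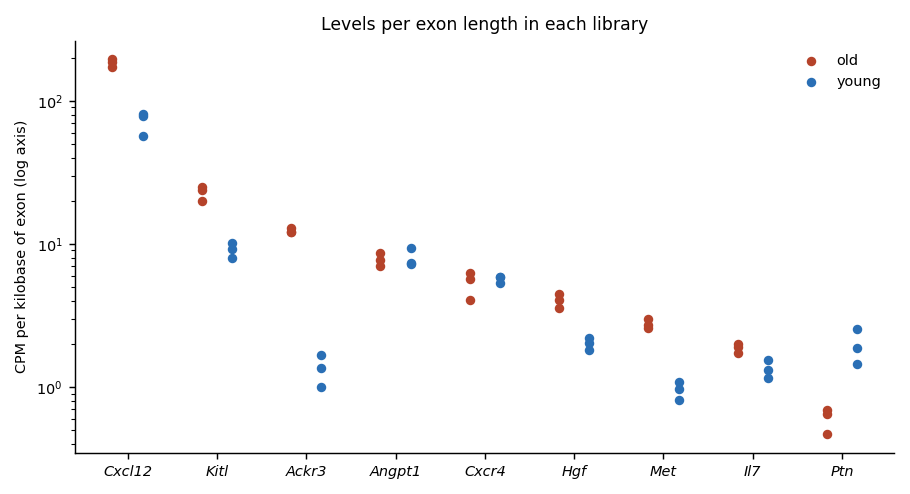
CPM per kilobase of exon of the 9 tested genes in each library on a log axis, ordered by the old mean, with old libraries left of young ones for each gene. Ackr3 and Ptn change place most: Ackr3 is near 12.4 in old libraries and 1.34 in young ones, and Ptn near 0.603 and 1.95.

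The receptors and partners of these factors were compared in the same fit. Of 9 receptor genes for the ligands above, 8 were tested, of which 1 rose and 1 fell. Il7r, the interleukin 7 receptor chain, rose to 47.1 ± 4.88 CPM in old libraries, against 20.8 ± 2.53 CPM in young ones (SE of the log2 fold change 0.13, adjusted p = 0.0023). Il2rg, the chain it shares with other cytokine receptors, fell to 65.6 ± 4.97 CPM in old libraries, against 97.3 ± 4.44 CPM in young ones (log2 fold change -0.57, adjusted p = 0.0087), and 30.5% of its exon length overlaps another gene. Both calls held whichever library was left out. Kit, the receptor of KIT ligand, had 13.2 ± 3.64 CPM in old libraries and 7.03 ± 1.16 CPM in young ones and missed the threshold in edgeR (log2 fold change 0.90, adjusted p = 0.0514). It passed with the DESeq2 test (adjusted p = 0.00428) and in edgeR without old replicate 1 (adjusted p = 0.0455), and had adjusted p up to 0.149 on leaving out any other library. With the DESeq2 test 3 of the 8 receptor genes were higher and 1 was lower. Markers of mast cells, which carry KIT, were higher in the same libraries: summed over 5 genes, 33.9 to 56.9 CPM in old libraries, against 8.28 to 11.5 CPM in young ones. Their part in the Kit level was not tested. The median log2 fold change of the 8 receptors was -0.49, against -0.01 over all tested genes.

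Of 9 genes for HGF activation and for its relative MSP, 7 were tested and 1 was called. It was Spint2, an inhibitor of the proteases that activate HGF, with 4.64 ± 0.38 CPM in old libraries and 2.79 ± 0.11 CPM in young ones (adjusted p = 0.0351). That call held without young replicate 3 and was lost without each other library (adjusted p up to 0.135). Plau, the urokinase gene, had 168 ± 33.3 CPM in old libraries and 168 ± 12.6 CPM in young ones. Of 7 proteases reported to cut CXCL12 or KIT ligand, 1 rose and 1 fell. Dpp4, which trims the N-terminus of CXCL12, rose to 1.53 ± 0.23 CPM in old libraries, against 0.488 ± 0.178 CPM in young ones (adjusted p = 0.0321), and Adam17, a sheddase, fell to 124 ± 7.48 CPM in old libraries, against 156 ± 6.96 CPM in young ones (adjusted p = 0.0379). Neither call held when any old library or young replicate 1 was left out, and that of Adam17 also needed young replicate 2 (adjusted p up to 0.119 for Dpp4 and 0.161 for Adam17). Median log2 fold changes of these lists were 0.37 and -0.62.

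Among 10 relatives of the ligands, 7 were tested, 2 rose and 1 fell. Mdk, encoding midkine, the closest relative of pleiotrophin, fell as Ptn did, to 2.02 ± 0.52 CPM in old libraries, against 5.14 ± 0.79 CPM in young ones (log2 fold change -1.35, adjusted p = 0.0174). Mdk missed the threshold, with adjusted p up to 0.061, when young replicate 1 or old replicate 1 or 2 was left out. Angpt4, another angiopoietin, rose to 109 ± 11.7 CPM in old libraries, against 49.1 ± 14.5 CPM in young ones (adjusted p = 0.0145), but missed the threshold when young replicate 2 or any old library was left out (adjusted p up to 0.0575). Csf1, the macrophage growth factor, had 808 ± 61.4 CPM in old libraries and 434 ± 145 CPM in young ones (adjusted p = 0.0436), and its call held without young replicate 3 but not without any other library (adjusted p up to 0.143). Epo had 0 counts in each library, and Flt3l was not analysed here. The median log2 fold change of the 7 was 0.45.

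Of 20 further niche factors, 19 were tested, 4 rose and 2 fell, with a median log2 fold change of 0.07. Vcam1, an adhesion molecule for stem cells, rose to 130 ± 6.58 CPM in old libraries, against 79.5 ± 4.32 CPM in young ones (adjusted p = 0.00271). Tnfsf11, encoding the osteoclast factor RANKL, rose to 12.4 ± 1.31 CPM in old libraries, against 4.78 ± 0.92 CPM in young ones (adjusted p = 0.00495). Il6, a cytokine, rose to 4.98 ± 0.69 CPM in old libraries, against 1.11 ± 0.42 CPM in young libraries (adjusted p = 0.00762). Wnt5a, a Wnt ligand, fell to 33.4 ± 2.53 CPM in old libraries, against 53.3 ± 3.18 CPM in young ones (adjusted p = 0.00596). These 4 calls held whichever library was left out. The other two genes called were Spp1 (osteopontin, log2 fold change 0.60, with 18.8% of its exon length overlapping another gene) and the Notch ligand gene Dll4 (-2.43). Neither passed when any one old library was left out, nor did Spp1 when young replicate 1 was (adjusted p up to 0.0702 for Spp1 and 0.0908 for Dll4). On leaving out 1 library, 3 to 7 of the 19 were higher and 1 to 4 lower.

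Markers of the cells that could supply these factors moved in different directions. Of 6 genes of CXCL12-abundant reticular cells, 3 rose and 1 fell, and their summed level was 446 to 465 CPM in old libraries and 194 to 257.5 CPM in young ones. Foxc1, a transcription factor of these cells, rose to 192 ± 14.7 CPM in old libraries, against 80.3 ± 20.2 CPM in young ones (adjusted p = 0.00744), and Pdgfra, a PDGF receptor, to 145 ± 18.2 CPM in old libraries, against 61.8 ± 5.53 CPM in young ones (adjusted p = 0.00137). Ebf1, a factor that B cells also use, rose as well (log2 fold change 0.77), and Lepr, the leptin receptor that marks these cells in adult marrow, fell (-0.73). Ebf1 missed the threshold when old replicate 1 or 2 was left out (adjusted p up to 0.0518), and that of Lepr held without young replicate 2 and not without any other library (adjusted p up to 0.135). Adipoq, the adiponectin gene, was low at both ages and did not pass (adjusted p = 0.873).

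Markers of stroma in general had a median log2 fold change of -0.73, which was -0.32 without young replicate 3. Of 10 markers 0 rose and 1, Lum, fell in edgeR (adjusted p = 0.0182). At an unadjusted p of 0.05 there were 1 higher and 4 lower, the same counts as with the DESeq2 test, and limma-voom called 0 higher and 1 lower. The 4 lower were the matrix genes Col1a1, Col1a2, Col5a1 and Lum. The 1 higher was Pdgfrb (log2 fold change 0.54, adjusted p = 0.0651 in edgeR and 0.0092 in DESeq2), and Prrx1 was near 0 (0.08). The summed level was 23267 to 29749 CPM in old libraries and 32093 to 72186 CPM in young ones, highest in young replicate 3. Lum missed the threshold when any one young library or old replicate 1 was left out (adjusted p up to 0.0894), and its log2 fold change moved from -3.14 to -4.23 without old replicate 3. Of 8 osteoblast markers 5 fell (3 to 6 on leaving out 1 library), and of 10 macrophage markers 9 fell (8 to 9), with summed macrophage levels of 4504 to 4880 CPM in old libraries and 7959 to 9882 CPM in young ones. Endothelial markers, another known source of KIT ligand, summed to 28.4 to 42.2 CPM in old libraries and 22.5 to 48.6 CPM in young ones, with 1 of 9 tested called, lower, and that call (Flt1) was lost in each of the 6 fits that left out 1 library (adjusted p up to 0.146). This sum joined genes that moved in opposite directions, with a median log2 fold change of -0.53. Pecam1, Cdh5, Kdr, Flt1, Tek and Tie1 had negative log2 fold changes (-0.53 to -1.95), and Emcn (0.88) and Vwf had positive ones. The overlap of the sums therefore does not describe most of the listed genes. Within the sum, Vwf had 11.4 ± 5.94 CPM in old libraries and 2.05 ± 1.55 CPM in young ones (log2 fold change 2.48, edgeR adjusted p = 0.0795). Kdr had 8.86 ± 1.45 CPM in old libraries and 15.85 ± 4.32 CPM in young ones (log2 fold change -0.84, edgeR adjusted p = 0.0679). Of 5 adipocyte markers 4 were tested and 2 rose: Fabp4, a lipid carrier, whichever library was left out, and Lpl, a lipase, whose call held without young replicate 3 and not without any other library (adjusted p up to 0.155). Adipoq and Plin1 did not pass in edgeR (adjusted p = 0.873 and 0.395), and Cidec had 0 to 4 counts per library and was not tested. Of 4 tested B cell markers 3 rose (2 to 3 on leaving out 1 library). Among 5 genes of blood progenitors, Gata2 was called, higher, and its call needed young replicate 2 and each old library (adjusted p up to 0.0892). At an unadjusted p of 0.05, 3 of these 5 were higher, as many as with the DESeq2 test, and limma-voom called 1. Of 4 tested T cell markers 1 fell, Cd4. The others, Cd3d, Cd3e and Cd3g, were not called, and the log2 fold change of Cd3e ran from -1.20 to 2.495 on leaving out 1 library. With at least 50 counts in 3 libraries required, 1 of the 5 T cell markers was tested. Mast cell and megakaryocyte markers rose for 3 of 5 each (2 to 3 and 0 to 4 on leaving out 1 library). Of 5 neutrophil markers 0 were called in edgeR or limma-voom, with 2 lower at an unadjusted p of 0.05 and 2 lower in DESeq2. The part of these cells in the levels of Kitl, Cxcl12 and the other factors was not tested.

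**Figure D5:**
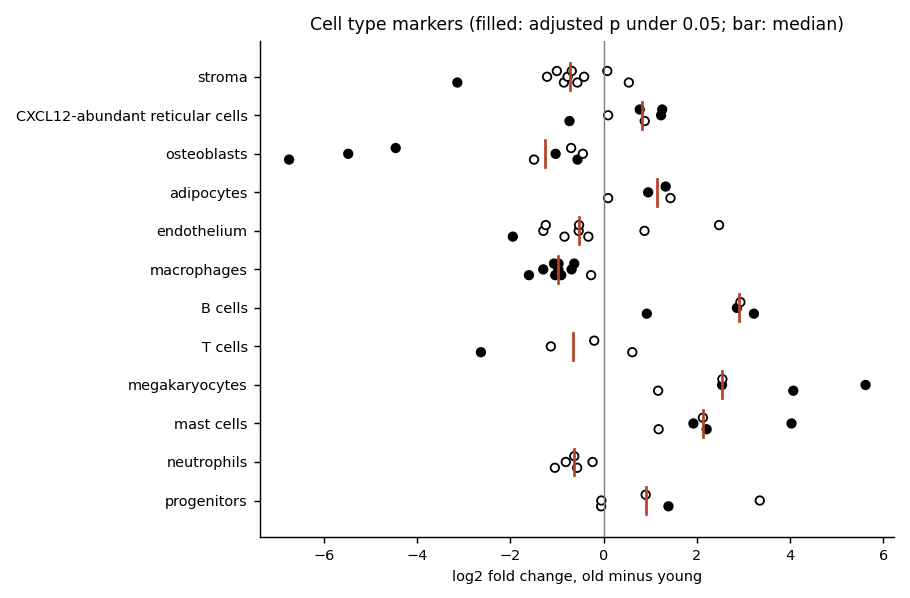
Log2 fold change, old minus young, of each tested marker gene by cell type list; filled points passed an adjusted p of 0.05 and the vertical bar is the list's median. The medians are 0.83 for CXCL12-abundant reticular cells, -0.73 for stroma and -0.97 for macrophages.

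The levels were also set against the summed stroma markers of the same library. Collagen genes made up most of that sum: Col1a1, Col1a2 and Col3a1 averaged 12096, 7520 and 3776 CPM in old libraries. In young libraries they averaged 24227, 13566 and 5575 CPM. With Col1a1 and Col1a2 removed, Col3a1 was the largest part. The sum was lower in the old libraries, so this measure shifts the value of each gene upward, called or not. The stroma markers Pdgfrb and Prrx1 were not lower in old libraries (log2 fold changes 0.54 and 0.08), and ratios to them were not computed. The ratio to the summed stroma markers was 4.31-fold higher in old than in young libraries for Kitl, 4.47-fold for Cxcl12, 16.3-fold for Ackr3 and 3.44-fold for Hgf, and the log2 difference for Met was 2.32. Of the genes with no call, Il7 was 2.41-fold higher by this measure, Angpt1 1.68-fold and Cxcr4 1.59-fold, the last with overlapping libraries (exact two-sided permutation p = 0.3). Ptn was 1.86-fold lower. Without Col1a1 and Col1a2 in the sum, the log2 differences were 1.81 for Kitl, 1.87 for Cxcl12, 3.73 for Ackr3, 1.49 for Hgf, 2.03 for Met, 0.98 for Il7, 0.46 for Angpt1, 0.38 for Cxcr4 and -1.19 for Ptn. Leaving out young replicate 3, with the full sum, they were 1.75 for Kitl, 1.89 for Cxcl12, 3.69 for Ackr3, 1.48 for Hgf, 1.84 for Met, 0.90 for Il7, 0.51 for Angpt1, 0.26 for Cxcr4 and -1.05 for Ptn. The summed macrophage markers were lower in the old libraries too, and against them the ratios were 4.71-fold higher for Kitl, 4.88-fold for Cxcl12, 17.8-fold for Ackr3 and 3.76-fold for Hgf, and 1.70-fold lower for Ptn. The genes with no call were higher by this measure as well, Il7 by 2.635-fold, Angpt1 by 1.84-fold and Cxcr4 by 1.74-fold. For the ratios to the full sums over all 6 libraries, other than that of Cxcr4 to stroma, the old and young libraries did not overlap, with an exact two-sided permutation p of 0.1, the smallest that 3 against 3 libraries allow.

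Genes with the most similar pattern over the 6 libraries were sought among 10537 others with a mean of at least 5 CPM, leaving out predicted gene models. Likeness was the mean absolute difference of log2 (CPM + 0.5) after centring each gene. The genes nearest to Kitl were Lgr4 (0.0382), a receptor for R-spondins, Rgs1 (0.0542), a regulator of G protein signalling, and Il1r1 (0.068), the interleukin 1 receptor. Nearest to Cxcl12 were Ereg (0.0369), encoding the EGF receptor ligand epiregulin, Vegfc (0.0576), a lymphatic growth factor, and Rarres1 (0.0597). Nearest to Hgf were Heg1 (0.0459), Socs3 (0.0608), a feedback inhibitor of cytokine signalling, and Gas1 (0.0633). Each of these 9 genes was itself higher in old libraries, with log2 fold changes from 0.97 (Heg1) to 1.51 (Rarres1). That follows from the choice, which sought likeness to genes that rose over the same libraries. The measure is a description over these 6 libraries.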

How the data were processed

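Per the labels' protocols, cDNA was made with a SMART-Seq kit for small inputs, which keeps no strand information, and sequenced as read pairs. The deposited table gives raw read counts per Ensembl gene. STAR 2.6.1a, HISAT2 2.1.0 and StringTie 1.3.4d and the mm10 build are named in the submitters' processing notes. The sources used here do not give the counting tool, the annotation or the handling of multiply mapped reads.

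Columns were assigned from the labels, and 0 were left unused. Symbols, positions and exon lengths came from GENCODE M21 (GRCm38), which matched 37693 identifiers. Counts were tested in R 4.3.3 with edgeR 4.0.16 (filterByExpr, TMM, robust quasi-likelihood test, Benjamini-Hochberg adjustment). The procedure was also run on counts simulated with dispersions fitted to these libraries. That run cannot show how well the threshold holds for the real counts. SE was obtained from the fold change and its F statistic, and 95% intervals from the t distribution. CPM uses TMM-scaled library sizes. Exact permutation tests used scipy 1.17.1. Genes to name were the 10 members, Adgre1, Siglec1, up to 4 called genes of each of 17 lists with the smallest p (some are not reported here), and the 3 genes most like Kitl, Cxcl12 and Hgf; further genes named were chosen after their values were seen. Members and lists were chosen with earlier results of these data known. Alternatives were DESeq2 1.42.0 (size factors and test), limma-voom (limma 3.58.1), other filters, a replicate block and leaving out each library. The limits given for Thpo cover counting error only, whereas the 95% intervals of fold changes also include variation among the libraries. No pair of replicates agreed within sampling noise (chi-square per degree of freedom 23.2 to 118).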

Additional observations from a re-analysis of the deposited data

How the results depend on the processing

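The 5 higher and 1 lower niche genes were called under each alternative run: DESeq2 size factors, the DESeq2 test, limma-voom, no low-count filter, at least 50 counts in 3 libraries, the replicate block and leaving out each library. With the replicate block the log2 fold changes were 3.24 for Ackr3, 1.54 for Met, 1.38 for Cxcl12, 1.32 for Kitl, 1.00 for Hgf and -1.68 for Ptn. The labels do not state whether replicate numbers pair the libraries. Deviations from the age means correlated at 0.112, 0.0341 and 0.136 for same-numbered libraries, and at -0.145 to 0.0596 for the others. Young replicate 2 correlated best with old replicate 1 (0.0596). Deviations from means of 3 libraries cannot decide the pairing. Over all genes the block gave 711 higher and 575 lower. Under it the protease list had 0 higher and 0 lower (Dpp4 adjusted p = 0.0718, Adam17 0.0853), and the HGF list 0 higher and 1 lower, with Spint2 lost (0.0843) and Plat called (0.032). Among the genes not called, the log2 fold change without 1 library ranged from -0.1239 to 0.0946 for Angpt1, above 0 without young replicate 3 or old replicate 2 (0.0375), and from -0.2235 to 0.0746 for Cxcr4, above 0 without old replicate 3. Over all genes, 909 were higher and 731 lower; the DESeq2 test gave 1331 and 1137, and leaving out 1 library gave 418 to 1459 higher and 294 to 1168 lower. The log2 difference of Ptn relative to the stroma markers moved from -0.90 to -1.19 without Col1a1 and Col1a2. With 3 libraries an age, ratio tests could not pass 0.05, and Thpo was too shallow to compare.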
